A study of Mus musculus with 8 samples.

Results

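The genes described here are 43 nucleolar, ribosomal RNA processing and RNA polymerase I genes. They were chosen by name, with earlier results of these data known. All 43 of them were found among the 23361 genes of the authors' deposited table, and all 43 reached 10 FPKM on average over the groups. FPKM counts fragments per kilobase of transcript and is scaled to library size, so levels of different genes can be set side by side. The cells were established leukaemia lines of strain 129S6, derived from mouse bone marrow by transduction with the oncogene MLL-AF9 and grown with interleukin 3. The first line was Cdc73fl/fl CreERT2 and is called floxed. The second was Cdc73 +/+ CreERT2 and is called wild type. CreERT2 is a recombinase that becomes active with 4-hydroxytamoxifen (4OHT), and both lines received it at 7.5 nM, for 24 or 48 h. Each of the 4 groups had 2 libraries of polyA RNA, which the authors combined into 1 value per gene. No SD or n can therefore be given, total reads are not given, and a gene is said to have changed only where the q-value that the authors give for the comparison of the lines was under 0.05. The sources used here do not say whether a line is 1 clone, and no library without 4OHT was used, so differences between the lines that preceded 4OHT are part of each comparison.

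Ribosomes are assembled mainly in the nucleolus. There RNA polymerase I transcribes the long ribosomal RNA precursor, small nucleolar RNA-protein particles (snoRNPs) modify it, and separate sets of assembly factors fold and cut it into the small and the large subunit. Many genes of this process are known targets of the transcription factor MYC, which binds with MAX to the E-box CACGTG, and their products are abundant in fast-growing leukaemia cells.

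The targeted gene and the markers of the cells were as follows. Cdc73, a subunit of the PAF1 complex on chromosome 1, stood at 5.96 FPKM in floxed and 26.2 in wild type cells at 24 h, and at 5.45 in floxed and 26.9 in wild type cells at 48 h. Its value covers the whole gene, not the deleted part alone, and B3galt2 shares its locus entry. Of 6 blood and myeloid markers 5 were found by symbol, between 5.42 and 1986 FPKM, while the T cell, B cell and erythroid markers found all lay at or under 0.555 FPKM. Of 3 stroma and vessel markers, Col1a1 and Col1a2 lay at or under 0.0520 FPKM, and Pecam1, which myeloid cells also express, reached 6.91. Of 14 markers of mature myeloid cells, 4 were higher and 3 lower in floxed cells at 24 h, with summed levels of 9021 FPKM in floxed and 10098 in wild type cells. At 48 h all 14 were higher, with summed levels of 28594 FPKM in floxed and 7429.8 in wild type cells. Their part in the results at 48 h was not tested, and in these bulk samples fewer cells of a type and less RNA per cell cannot be told apart.

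Ribosome biogenesis genes differed little between the lines at 24 h and were broadly lower in floxed cells at 48 h. Together the 43 genes summed to 4985 FPKM in floxed and 4952 in wild type cells at 24 h, which was 0.759% of all FPKM in floxed and 0.744% in wild type cells. At 48 h they summed to 3352 FPKM in floxed and 4827 in wild type cells, or 0.479% of all FPKM in floxed and 0.739% in wild type cells. Npm1 alone gave a large part of these sums, and without it the sums at 48 h were 2346 FPKM in floxed and 3191 in wild type cells. At 24 h, 4 of the 43 genes were lower in floxed cells (9.30%, where 14.2% of all 10987 tested genes were) and 2 were higher (4.65%, against 13.4%). The share called in each direction at 24 h was thus below that of all tested genes. At 48 h, 24 were lower (55.8%, where 31.0% of all 11039 tested genes were) and 0 were higher (against 25.7%). Called or not, 23 genes stood below wild type at 24 h (51.5% of all tested genes did) and 39 at 48 h (54.1%). The median difference on the log2(FPKM + 1) scale was -0.01 at 24 h, as it was over all 11158 expressed genes, and -0.47 at 48 h, where that of all expressed genes was -0.06.

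**Figure D1:**
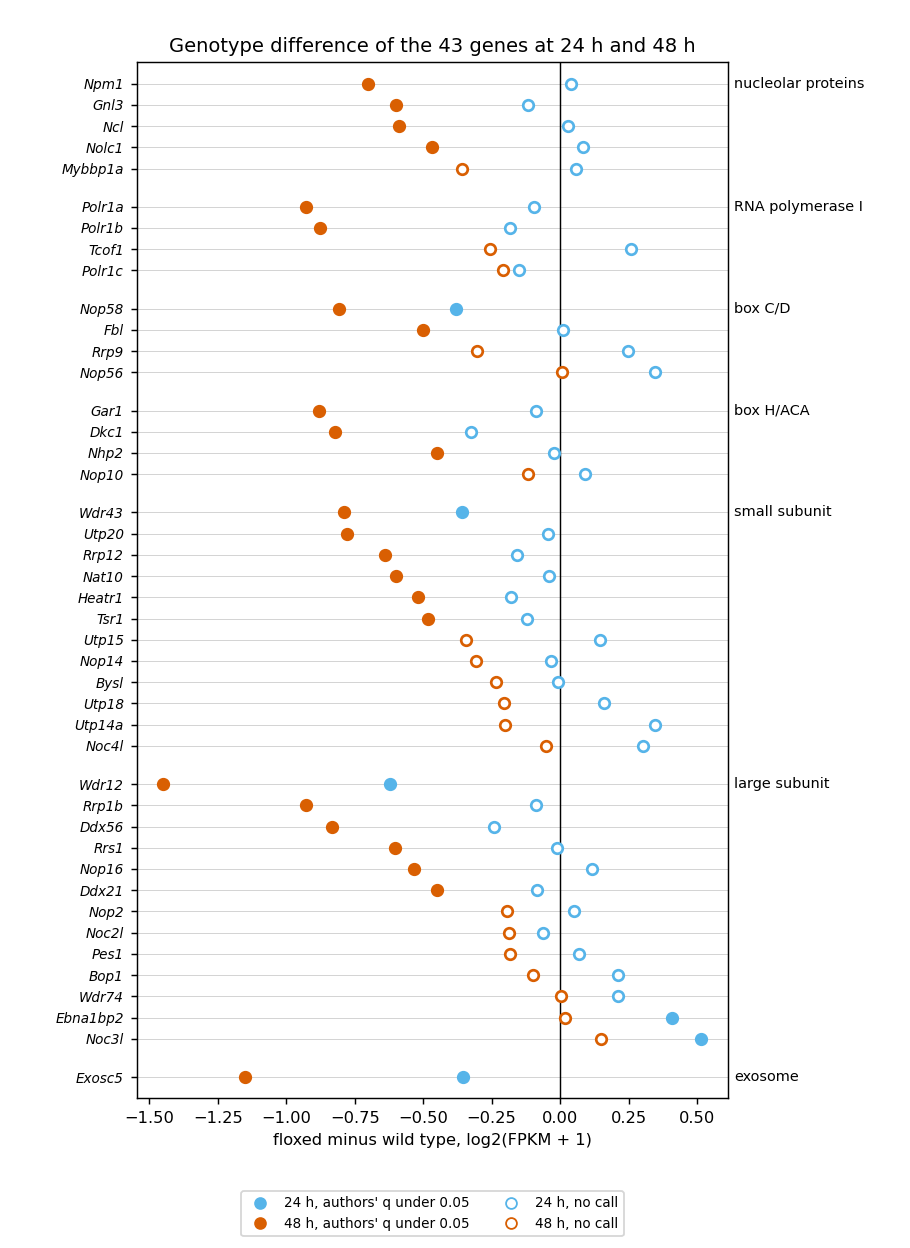
Difference of the level on the log2(FPKM + 1) scale, floxed minus wild type, for each of the 43 genes (rows, grouped by role and ordered by the 48 h value within a role). Blue points are 24 h and orange points 48 h; filled points passed the authors' q under 0.05. At 24 h 23 genes lie left of 0, and at 48 h 39 do.

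Among the multifunctional nucleolar proteins, 4 of 5 were lower in floxed cells at 48 h (31.0% of all tested genes were) and 0 were called at 24 h. Npm1 encodes nucleophosmin, an abundant nucleolar chaperone that shuttles to the cytoplasm, and its gene is at chr11:33152287-33163206, minus strand, in mm10. It had the highest level of all 43 genes, at 1659.9 FPKM in floxed and 1616 in wild type cells at 24 h, and at 1006 in floxed and 1636 in wild type cells at 48 h. The 48 h difference was 1.63-fold, with q = 0.000316 in the authors' deposited table, while floxed cells at 24 h stood at 1.03 times the wild type level. Processed copies of Npm1 in the mouse genome can take some of its reads, so its level is less certain than its rank. Ncl encodes nucleolin, which binds nascent ribosomal RNA, and was next in level except in floxed cells at 48 h, where Nop10 and Fbl stood above it. It was at 271 FPKM in floxed and 266 in wild type cells at 24 h and at 171 in floxed and 258 in wild type cells at 48 h. Gnl3, the GTPase nucleostemin, had 50.4 FPKM in floxed and 76.9 in wild type cells at 48 h, and Nolc1, a chaperone of snoRNPs, 65.5 in floxed and 90.9 in wild type cells. Those differences of 1.51-, 1.52- and 1.39-fold for Ncl, Gnl3 and Nolc1 were all called. Ncl and Gnl3 share their locus entries with snoRNA genes, and Gnl3 also with Spcs1 and Glt8d1, so the split of reads there is uncertain. Mybbp1a, a nucleolar protein that also binds transcription factors, stood at 99.6 FPKM in floxed and 128 in wild type cells at 48 h, just outside the threshold with q = 0.0565 in the authors' deposited table.

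Among the 4 RNA polymerase I genes chosen here, the catalytic subunits were lower at 48 h and the others were not called. That made 2 of 4 genes lower at 48 h, where 31.0% of all tested genes were. At 24 h 0 of 4 were called, where 14.2% of all tested genes were lower and 13.4% higher. Further subunits, counted below with the other pathway genes, were called in both directions at 48 h. Polr1d and Znrd1 were 1.37-fold and 1.56-fold higher in floxed cells, and Znrd1 was also higher at 24 h. Twistnb and Cd3eap were 1.53-fold and 1.39-fold lower at 48 h, and Polr1e had no call. Cd3eap shares its locus entry with Ercc1. Polr1a encodes the largest subunit and is at chr6:71909053-71984935, plus strand. It stood at 20.9 FPKM in floxed and 22.4 in wild type cells at 24 h, and at 10.7 in floxed and 21.2 in wild type cells at 48 h. Polr1b, the second largest subunit, which forms the active centre with Polr1a, stood at 24.0 in floxed and 27.4 in wild type cells at 24 h and at 13.7 in floxed and 26.0 in wild type cells at 48 h. Both were close together at 24 h and well apart at 48 h, 1.99-fold and 1.89-fold lower in floxed cells, each with q = 0.000165 in the authors' deposited table, the smallest value it holds at 48 h. Polr1c, a subunit that RNA polymerase III shares, was at 37.7 FPKM in floxed and 43.7 in wild type cells at 48 h, with no call. The level of Polr1a divided by that of Polr1c was 0.533 in floxed and 0.514 in wild type cells at 24 h, and 0.283 in floxed and 0.486 in wild type cells at 48 h. Tcof1 encodes treacle, which assists transcription by RNA polymerase I, and was at 25.3 FPKM in floxed and 30.4 in wild type cells at 48 h, also with no call.

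Box C/D snoRNPs add methyl groups to ribosomal RNA and their core proteins here are Fbl, Nop56 and Nop58. With Rrp9, 1 of 4 genes was lower at 24 h (14.2% of all tested genes were) and 2 of 4 at 48 h (31.0%). Fbl, the methyltransferase fibrillarin, stood at 257 FPKM in floxed and 255 in wild type cells at 24 h and at 177 in floxed and 250.4 in wild type cells at 48 h, 1.42-fold lower. Nop58 and Nop56 are related scaffold proteins that sit side by side in the particle. Nop58 was lower at both times, at 129 FPKM in floxed and 168 in wild type cells at 24 h and at 89.7 in floxed and 158 in wild type cells at 48 h. Nop56 was at 208 FPKM in floxed and 163 in wild type cells at 24 h and at 161 in both at 48 h, with no call at either time. The level of Nop58 over that of Nop56 was therefore 0.621 in floxed and 1.03 in wild type cells at 24 h, and 0.555 in floxed and 0.982 in wild type cells at 48 h. Both genes carry snoRNA genes in their bodies and share a locus entry with them, and Nop56 shares its entry with Idh3b too, so the split of reads there is uncertain. Rrp9, which binds the U3 snoRNA, stood at 33.1 in floxed and 41.1 in wild type cells at 48 h with no call.

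Box H/ACA snoRNPs convert uridine to pseudouridine, and 3 of their 4 core genes were lower at 48 h (31.0% of all tested genes were). Gar1 was at 69.6 FPKM in floxed and 74.1 in wild type cells at 24 h and at 39.6 in floxed and 73.6 in wild type cells at 48 h, 1.86-fold lower. Dkc1, the pseudouridine synthase dyskerin, was at 111 in floxed and 140.1 in wild type cells at 24 h, and at 79.6 in floxed and 142 in wild type cells at 48 h. It was not called at 24 h and was 1.78-fold lower at 48 h, and it shares its locus entry with Mpp1. Nhp2 fell to 158 FPKM in floxed cells at 48 h, against 216 in wild type cells, and shares its locus entry with Rmnd5b. Nop10, the smallest of the set, was at 204 in floxed and 221 in wild type cells at 48 h, with no call. The level of Gar1 over that of Nop10 was 0.290 in floxed and 0.329 in wild type cells at 24 h, and 0.194 in floxed and 0.333 in wild type cells at 48 h.

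**Figure D2:**
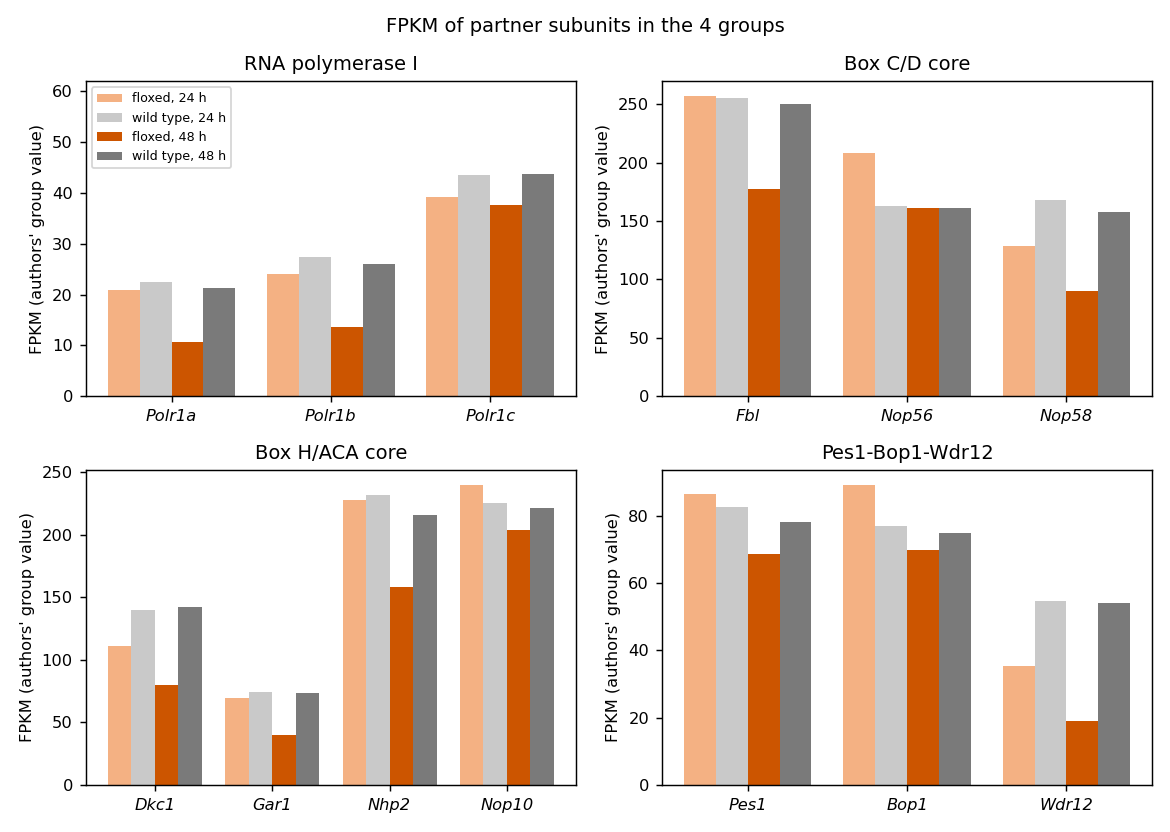
FPKM (bars from 0, the authors' value for each group of 2 libraries) of partner subunits in 4 complexes, with floxed cells in orange and wild type cells in grey, paler at 24 h. At 48 h Polr1a, Polr1b, Fbl, Nop58, Dkc1, Gar1, Nhp2 and Wdr12 are lower in floxed cells, while Polr1c, Nop56, Nop10, Pes1 and Bop1 had no call.

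Small subunit factors had 6 of 12 genes lower at 48 h (31.0% of all tested genes were), against 1 of 12 at 24 h (14.2%). All 12 stood below wild type at 48 h whether called or not (54.1% of all tested genes did). Wdr43 belongs to the proteins that load first onto the nascent precursor. It was lower at both times, at 54.1 FPKM in floxed and 69.7 in wild type cells at 24 h and at 35.9 in floxed and 62.7 in wild type cells at 48 h. Heatr1, of the same early module, was at 23.7 in floxed and 34.4 in wild type cells at 48 h, and Utp15, also of that module, at 18.1 in floxed and 23.2 in wild type cells without a call. Utp20, a very large scaffold protein, had the lowest level of all 43 genes, 9.17 FPKM in floxed cells at 48 h, against 16.4 in wild type cells. Rrp12, which takes part in export of pre-ribosomes, was 1.60-fold lower at 48 h, and Nat10, an acetyltransferase of small subunit RNA, 1.54-fold lower. Tsr1, a late factor, was 1.41-fold lower. The other 5 genes without a call at 48 h were Utp14a, Utp18, Nop14, Noc4l and Bysl. Their levels in floxed cells were between 0.802 times the wild type level in Nop14 and 0.964 times in Noc4l.

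Large subunit factors held the extremes of the whole set. Wdr12 forms a complex with Pes1 and Bop1 that is needed to process the large subunit RNA, and is at chr1:60069785-60098645, minus strand. It stood at 35.2 FPKM in floxed and 54.7 in wild type cells at 24 h, and at 19.1 in floxed and 54.0 in wild type cells at 48 h. These differences of 1.55-fold and 2.82-fold were each called, and the one at 48 h was the largest among the 43 genes. Its partners had smaller differences: Pes1 was at 68.7 FPKM in floxed and 78.1 in wild type cells at 48 h, and Bop1 at 69.9 in floxed and 74.9 in wild type cells, neither with a call. The level of Wdr12 over that of Pes1 was 0.407 in floxed and 0.663 in wild type cells at 24 h, and 0.279 in floxed and 0.691 in wild type cells at 48 h. Wdr12 shares its locus entry with Carf, a gene on the opposite strand that stood at 0.573 FPKM in floxed and 1.61 in wild type cells at 48 h, and no source used here states whether reads were assigned by strand.

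Of the 13 large subunit factors, 6 were lower at 48 h (46.2%, against 31.0% of all tested genes). Besides Wdr12 these were Rrp1b at 9.19 FPKM in floxed and 18.4 in wild type cells, the helicase genes Ddx56 at 22.0 in floxed and 39.9 in wild type cells and Ddx21 at 68.6 in floxed and 94.0 in wild type cells, Rrs1 at 42.2 in floxed and 64.6 in wild type cells, and Nop16 at 41.7 in floxed and 60.8 in wild type cells. Rrs1 helps to bring the 5S RNA into the particle, and Ddx21 also acts on transcription by RNA polymerase I. Noc3l and Ebna1bp2 were the only genes of the 43 that were higher at 24 h. Noc3l stood at 19.1 FPKM in floxed and 13.0 in wild type cells at 24 h, 1.46-fold higher, and at 14.7 in floxed and 13.2 in wild type cells at 48 h. Ebna1bp2 stood at 69.0 in floxed and 51.8 in wild type cells at 24 h, 1.33-fold higher, and at 51.5 in floxed and 50.9 in wild type cells at 48 h. Neither was called at 48 h, so the higher level was seen at the early time, and the change between the times was not tested. Nop2, an RNA methyltransferase, Noc2l and Wdr74 had no call at either time, at 0.871, 0.876 and 1.00 times the wild type level at 48 h.

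Exosc5, a subunit of the RNA exosome that trims ribosomal RNA ends, was second to Wdr12 in size. It is at chr7:25659164-25671368, plus strand, and its exons overlap those of Tmem91 on the other strand. Its level was 98.1 FPKM in floxed and 126 in wild type cells at 24 h, and 51.8 in floxed and 116 in wild type cells at 48 h. That made it 1.28-fold and 2.24-fold lower. Over the ring and cap subunits Exosc1 to Exosc9, 4 of 9 were lower at 24 h, where 14.2% of all tested genes were, and 6 of 9 at 48 h, where 31.0% were, with 0 higher at both times. Exosc10, a nuclease bound to the ring, was 1.34-fold higher at 48 h. This grouping was made after the values were seen.

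All 4 genes that were lower at 24 h (Nop58, Wdr43, Wdr12 and Exosc5) were also lower at 48 h. A further 20 were called only at 48 h, and 17 were called at neither time. Of the 4, Nop58, Wdr43 and Wdr12 share their locus entry with another gene, as do 14 of the 43, and without those 14 the count lower at 24 h was 1. The count lower at 48 h was then 16 of 29 genes, and the count higher at 24 h was 1, Noc3l.

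The levels at 48 h were further below those at 24 h in floxed than in wild type cells, a difference that could not be tested. From 24 to 48 h, all 43 genes had a lower level in floxed cells, where 57.8% of genes with 1 FPKM or more at both times did. In wild type cells 38 of 43 had a lower level, where 55.0% of such genes did. A drop of at least 1.25-fold was seen in 39 of 43 genes in floxed cells, against 32.3% of such genes, and in 0 of 43 in wild type cells, against 3.97%. Levels at 48 h were between 0.511 times the 24 h level in Polr1a and 0.962 times in Polr1c in floxed cells, with a median of 0.688. In wild type cells they were between 0.893 and 1.02 times, with a median of 0.955, so the ranges of the lines overlapped only near the level of Polr1c. If both times are scaled to the same median of expressed genes, 42 of 43 had a lower level in floxed cells, Polr1c being the exception. It is not stated whether the 2 times were scaled together, and with 1 value per group these differences have no replicate check.

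**Figure D3:**
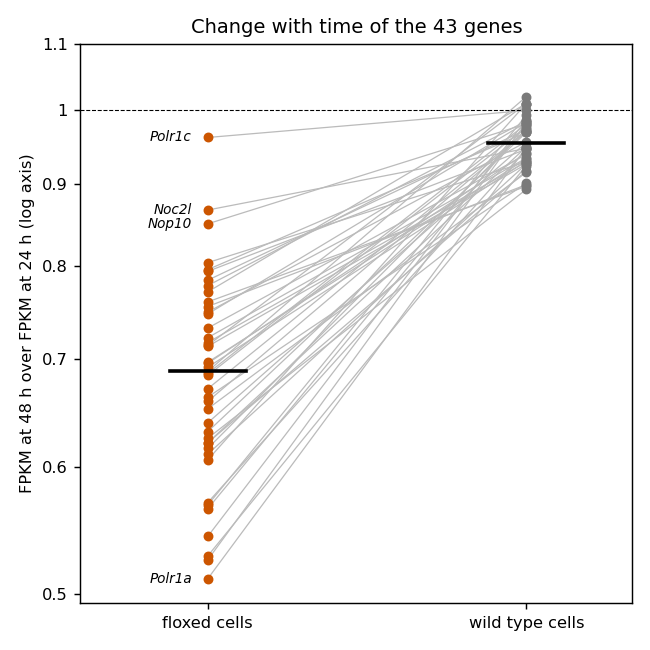
FPKM at 48 h divided by FPKM at 24 h (log axis) for each of the 43 genes in floxed cells (orange, left) and wild type cells (grey, right), with lines joining a gene and black bars at the medians of 0.688 in floxed and 0.955 in wild type cells. The dashed line marks equal levels at both times; 39 orange points and 0 grey points lie at or beyond a 1.25-fold drop.

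The genotype difference moved down between 24 and 48 h in all 43 genes, by a median of -0.48 on the log2(FPKM + 1) scale, against -0.07 over all expressed genes. It moved by -0.84 in Rrp1b, -0.83 in Polr1a and -0.83 in Wdr12. At the other end it moved by -0.06 in Polr1c and -0.13 in Noc2l. Among genes whose level was above wild type at 24 h, it moved by -0.55 in Utp14a and Rrp9, -0.39 in Ebna1bp2, -0.37 in Noc3l, -0.34 in Nop56 and -0.21 in Wdr74. Npm1, near wild type at 24 h, had a move of -0.74. No test of this change can be made on 1 value per group.

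Other genes of the pathway, 124 beyond the 43, were also more often lower than higher in floxed cells at 48 h, with more exceptions. Their list holds assembly factors and genes of RNA polymerase I transcription, the exosome and RNase MRP. At 24 h 13 of them were lower (10.5%) and 8 higher (6.45%), both below the 14.2% and 13.4% over all tested genes. At 48 h 51 were lower (41.1%) and 13 higher (10.5%), where 31.0% and 25.7% of all tested genes were. Their median difference at 48 h was -0.26 on the log2(FPKM + 1) scale. Among those lower, the largest differences at both times were in Rpp40 and Pop4, genes of RNase MRP, which cuts the precursor, and in the large subunit factor Urb2. Rpp40, an RNase MRP protein, was at 3.75 FPKM in floxed and 7.47 in wild type cells at 24 h and at 1.93 in floxed and 7.36 in wild type cells at 48 h. Pop4, of the same particle, was at 20.1 in floxed and 42.9 in wild type cells at 24 h and at 16.2 in floxed and 44.3 in wild type cells at 48 h. Of the 8 RNase MRP genes listed, 6 were lower at 48 h, where 31.0% of all tested genes were. Rpp25, a low gene of that list, was higher at both times, at 1.12 FPKM in floxed and 0.427 in wild type cells at 48 h. Urb2 was at 12.4 in floxed and 20.9 in wild type cells at 24 h and at 6.74 in floxed and 19.0 in wild type cells at 48 h.

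The other pathway genes that were higher included genes of several steps. Las1l, which takes part in cutting the spacer of the large subunit precursor, stood at 57.7 FPKM in floxed and 30.6 in wild type cells at 24 h and at 64.5 in floxed and 31.0 in wild type cells at 48 h. Taf1d, of the RNA polymerase I promoter factor, was at 65.8 in floxed and 28.2 in wild type cells at 48 h, 2.34-fold higher, and shares its locus entry. Tsr3, a modifying enzyme of small subunit RNA, was 1.71-fold higher at 48 h. At 24 h Nle1, a large subunit factor, was 1.48-fold and Znhit3, a box C/D assembly factor, 1.40-fold higher. Tsr3 and Znhit3 also share their locus entries. The assembly factors of box H/ACA particles, Naf1 and Shq1, picked here after their values were seen, were 1.92-fold and 2.09-fold lower at 48 h. The core genes Dkc1, Gar1 and Nhp2 were also lower then.

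**Figure D4:**
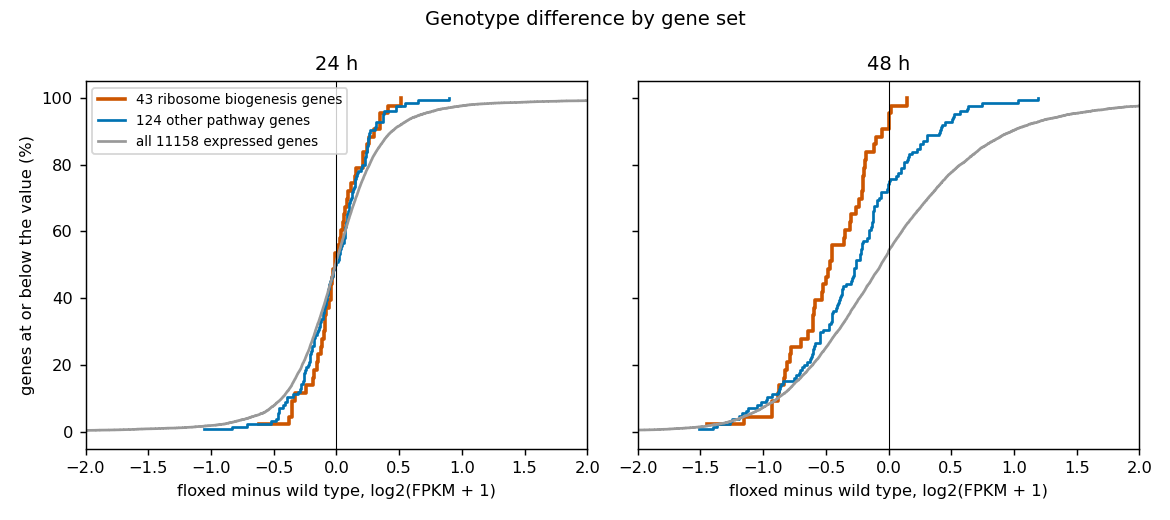
Cumulative share of genes (y axis, percent) at or below each genotype difference on the log2(FPKM + 1) scale (x axis, floxed minus wild type, cut at -2 and 2), at 24 h (left) and 48 h (right). The curve of the 43 genes (orange) crosses 50% at -0.01 at 24 h and at -0.47 at 48 h, that of the 124 other pathway genes (blue) at -0.26 at 48 h, and that of all 11158 expressed genes (grey) at -0.06 at 48 h.

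Promoter sequence was examined for the E-box that MYC and MAX bind, since most of the genes moved together at 48 h. Windows of 250 bases before to 50 bases after the start were on hand for 37 of the 43 genes, in 41 windows, from RefSeq on GRCm38.p6, the assembly of mm10. CACGTG, which reads the same on both strands, was found in 8 of 41 windows (19.5%). It was found in 10.4% of 10480 windows of genes expressed here and in 7.15% of all 32851 windows. Among genes lower at 48 h it was in 4 of 23 windows, and among those with no call in 4 of 18, with some genes giving more than 1 window. By gene the counts were 4 of 20 and 4 of 17, and their difference was not tested. The sites are shown with their flanks, 5′ to 3′ on the strand of the gene, with the motif in capitals, first for genes lower at 48 h and then for genes without a call.
Exosc5: taaacgctgagcCACGTGctagggccaact
Utp20: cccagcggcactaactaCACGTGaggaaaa
Tsr1: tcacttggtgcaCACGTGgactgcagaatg
Wdr43: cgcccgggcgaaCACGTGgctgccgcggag
Nop2: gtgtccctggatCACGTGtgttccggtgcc
Pes1: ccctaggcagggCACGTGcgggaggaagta
Mybbp1a: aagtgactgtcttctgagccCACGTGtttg
Utp18: gcgagcgccggtCACGTGgcttgcggcggc

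The motif began before the start in 3 of these genes and within the first 50 bases after it in the other 5. It began 44 bases before the start in Exosc5, 60 before in Nop2 and 20 before in Utp18. In Exosc5 the site is at chr7:25659097-25659126 on the plus strand, and the 250 bases before the start, chr7:25658903-25659152, are given as the promoter of the gene with the largest difference at 48 h among those that hold the motif, a choice made after its values were seen.
Exosc5: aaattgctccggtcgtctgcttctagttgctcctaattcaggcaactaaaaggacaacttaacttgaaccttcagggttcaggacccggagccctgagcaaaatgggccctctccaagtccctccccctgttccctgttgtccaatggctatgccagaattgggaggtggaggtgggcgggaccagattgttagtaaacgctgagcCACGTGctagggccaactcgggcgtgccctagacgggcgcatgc

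In position, the 43 genes were spread over 17 chromosomes. The 4 on chromosome 1, which also carries Cdc73, were Rrs1, Nop58, Wdr12 and Ncl, and all 4 were lower at 48 h. Of these 4, 2 were also lower at 24 h, Nop58 at chr1:59684971-59719044 and Wdr12 at chr1:60069785-60098645. Cdc73 lies at chr1:143598800-143702893. Of all tested genes on chromosome 1, 13.5% of 629 were lower at 24 h. At 48 h 29.4% of 635 were, where 31.0% over the genome were. Among the 7 other pathway genes on chromosome 1, 1 was lower at 24 h and 5 at 48 h. A link to position was not tested. The bodies of 7 of the 43 genes held 21 annotated snoRNA genes on the same strand (Ncl, Gnl3, Nop56, Nop58, Dkc1, Wdr43 and Tsr1). Of these 7 hosts, 6 were lower at 48 h, against 18 of the other 36, where 31.0% of all tested genes were. All 7 hosts are among the 14 genes with a shared locus entry, where the split of reads is uncertain. The contrast between hosts and the other genes was not tested. Nop56 was the host without a call. Across the 43 genes, which share the same libraries, the genotype difference was set against log10 of the genomic length and of the mean level. With length, Pearson's r was -0.33 and Spearman's rho -0.32 at 48 h, and -0.23 and -0.28 at 24 h. With mean level they were 0.02 and 0.08 at 48 h. These values were not computed over all expressed genes, and no link to length or level was tested.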

How the data were processed

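Gene values of 8 polyA RNA libraries in 4 groups of 2 were used. The submitters' processing notes name mm10 as the build and Cufflinks 2.1, Cuffdiff and Bowtie2 as tools, without their roles. Per the file headers, the authors deposited 1 FPKM value per gene and group, and a q-value comparing the lines at each time. How strand was handled, what was filtered and which test gave the q-value are not stated. With 1 value per group no test was made here: a call is the authors' q under 0.05, and its direction is that of the FPKM values. Differences use log2(FPKM + 1), which understates the change of low genes. Expressed genes reach 1 FPKM in at least 1 group, and tested ones also have q under 1; 27 names turned into dates were left out. Depth per library is unknown. The most common ratio of values under 0.05 FPKM, which may stem from single fragments, was 0.834 at 24 h and 1.07 at 48 h in floxed over wild type cells.

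Genes were placed by symbol and locus in GENCODE M21, which uses the assembly of mm10. Of the 43 genes, 19 have exons that overlap a gene on the opposite strand and 14 share a locus entry. Every one of the 43 genes was reported by role. Of the 124 other pathway genes, 9 were found under another symbol. Up to 3 of the 124 were named per direction and time by largest called difference at 1 FPKM or more in both groups. Polr1d, Polr1e, Znrd1, Twistnb, Cd3eap, Exosc10, Rpp25, Naf1 and Shq1 were named outside this rule, as was the set Exosc1 to Exosc9. The rule for promoters (E-box, called only at 48 h) gave 2 genes, so all 8 sites are shown. Members and lists were chosen with earlier results of these data known. The functions for calls and scaling were checked with set folds and q-values put into the deposited values, without noise. The other steps were not checked in this way. Python 3.11.15, numpy 2.4.6 and pandas 2.3.3 were used. Alternatives were another q threshold, pseudocount or scaling, no filter on low values, genes with their own locus entry, and genes of at least 10 FPKM. The last of these kept all 43 genes, so it could not change their results.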

Additional observations from a re-analysis of the deposited data

How the results depend on the processing

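No paired analysis was possible because the deposited table has no column per library, so the replicate block and the fits that leave out a library were not run. Of the 43 genes, 24 lower and 0 higher at 48 h became 19 and 0 at q under 0.01. At 24 h the counts of 4 lower and 2 higher became 1 and 1 at q under 0.01, and likewise 1 and 1 without genes that share a locus entry. The other pathway genes had 2 higher at 24 h and 8 higher at 48 h at q under 0.01. The 48 h median of the 43 genes ranged from -0.56 with groups rescaled to the same sum to -0.40 with the median of expressed genes set to 0. That rescaling to the same sum put the median of all expressed genes at -0.15, from -0.06, and the median change of the genotype difference at -0.59. The 24 h medians lay too near 0 to have a direction: with the same sum they were 0.0059 for the 43 genes and 0.0134 for the others, with the median of expressed genes set to 0 the others had 0.0074, and without shared locus entries the 43 genes had 0.0102. No called gene of the 43 changed direction under either scaling. All other counts stayed within 1.5 times, and other medians within 0.1, under the alternatives run. Without counts per library, no interval can be put on a level or a difference, so genes without a call are not shown to be equal between the lines.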
